A study of Mus musculus with 6 samples.

Results

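Replication-dependent histone genes encode the H1, H2A, H2B, H3 and H4 proteins that package newly copied DNA. In the mouse bone marrow data described here they were the 63 entries whose symbols name an H1f1 to H1f5, H2ac, H2bc, H3c or H4c gene, out of 47561 entries in all. By class, 5 encode the linker histone H1, 17 encode H2A, 17 encode H2B, 12 encode H3 and 12 encode H4. RNA was sequenced from bone marrow cells in 3 libraries of mice given chronic unpredictable mild stress (CUMS, a rodent depression procedure of changing mild stressors) for 4 weeks, and in 3 control libraries labelled as negative control. The labels record no strain, sex or age, no other treatment of either group, and not whether a library came from 1 animal or a pool. Their genotype entry repeats the group name. The deposited values are FPKM, fragments scaled to transcript length and library depth, so that levels below are per length. The series is titled for vasopressin and myelopoiesis in depression; its labels state no question about histones.

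Cells need large amounts of histone when they copy their DNA, and most of these genes are therefore transcribed mainly in S phase. Their genes lie in clusters and typically lack introns. Unlike other messenger RNAs, their mRNAs usually end in a short stem-loop that the stem-loop binding protein, encoded by Slbp, recognises, and not in a poly(A) tail. Some copies can also give polyadenylated transcripts. Bone marrow is rich in dividing erythroid, granulocyte and lymphoid precursors, alongside many cells that no longer divide. H1 binds the linker DNA between nucleosomes, H2A and H2B pair as dimers, and H3 and H4 pair as dimers at the core of the nucleosome.

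The stem-loop is shown because it is the feature that sets these mRNAs apart, and whether a library preparation captures them can depend on their 3′ ends. In GENCODE transcripts of the GRCm38 build, 62 of the 63 genes had a model, and 40 of these held a 16-base stem-loop of 6 pairs and a 4-base loop. Capitals mark the stem and loop in these windows.

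H1f2: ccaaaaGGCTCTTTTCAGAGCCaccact
H2bc11: tccaaaGGCTCTTTTCAGAGCCacgcac
H2ac18: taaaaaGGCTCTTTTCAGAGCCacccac
H2bc12: accaaaGGCTCTTTTAAGAGCCactaaa
H2ac20: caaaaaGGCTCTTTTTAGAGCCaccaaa
H4c9: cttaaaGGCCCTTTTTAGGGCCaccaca
H4c4: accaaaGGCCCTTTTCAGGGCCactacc
H4c2: acaaaaGGTCCTTTTCAGGACCactcac

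The form shared by H1f2, H2bc11 and H2ac18 was found in 24 genes of the H1, H2A, H2B and H3 classes. The form of H2bc12 was found in 5 H2B and H3 genes, and that of H2ac20 in H2ac20 alone among the models searched. The H4 genes held the other forms, that of H4c4 in 6 genes, that of H4c9 in 2 and that of H4c2 in 2. Where no stem-loop was found, the letters were not in the model searched. H1f1 and H1f5, described first below, are among those genes.

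Summed FPKM per library was 561563 to 658595, and 21334 to 23224 entries per library had a value above 0. Read counts are not given by these files, so no counting intervals are given. The file headers carry a code, 1 in replicate 1 of both groups and 2 in replicates 2 and 3. Its meaning is not given. Between code 2 and code 1 libraries, 30.5% of the 12302 tested genes differed (limma adjusted p under 0.05), as did 18.6% of the tested histone genes. Each group holds 1 library of code 1, and values within each code are given below. Haemoglobin genes made up 31.7% to 35.3% of summed FPKM in CUMS and 28.8% to 29.2% in control libraries.

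Histone transcripts were more abundant in the CUMS libraries as a sum. The 63 genes together reached 546.1, 535.8 and 515.5 FPKM in CUMS replicates 1 to 3, against 420.5, 397.2 and 413.7 FPKM in control replicates 1 to 3. The groups did not overlap, and the lowest CUMS library lay above the highest control library. The sums averaged 532.4 ± 15.6 FPKM in CUMS and 410.5 ± 11.95 FPKM in control (SD, n = 3 each), a ratio of 1.30, which was also 1.30 within code 1 and within code 2. They were 0.0836% to 0.0889% of the summed FPKM in CUMS and 0.0638% to 0.0713% in control libraries. In bulk marrow, more cells of a dividing type and more histone RNA per cell cannot be told apart. How RNA was selected is not stated either, and its part in these sums was not tested.

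**Figure D1:**
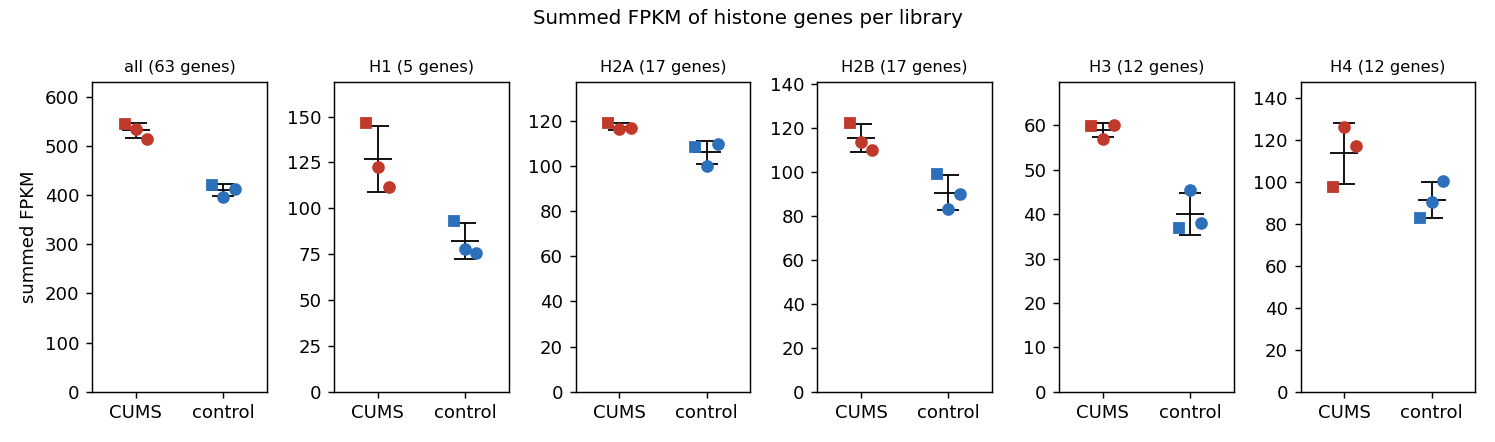
Summed FPKM (vertical axes, from 0) of all 63 histone genes and of each class in every library, CUMS left of control, with squares for replicate 1 (header code 1), circles for replicates 2 and 3, and bars for the mean ± SD. The groups are apart for the total, H1, H2A, H2B and H3 and overlap for H4, where the square lies lowest in both groups.

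The ratio of summed FPKM was not the same in every class. H1 sums were 146.7, 122.3 and 111.4 FPKM in CUMS, against 93.2, 77.7 and 75.5 FPKM in control, a ratio of means of 1.54. H3 sums were 59.8, 57.0 and 60.0 FPKM in CUMS, against 36.8, 45.5 and 37.9 FPKM in control, a ratio of 1.47. In both classes every CUMS library lay above every control library. H2B sums were 122.6, 113.9 and 110.0 FPKM in CUMS, against 99.1, 83.1 and 90.0 FPKM in control, a ratio of 1.27. H4 sums were 97.8, 126.2 and 117.4 FPKM in CUMS, against 83.0, 90.7 and 100.5 FPKM in control, a ratio of 1.24 with overlapping groups. The H2A sums showed the smallest ratio of the 5 classes, 1.11, from 119.3, 116.3 and 116.7 FPKM in CUMS and 108.4, 100.2 and 109.7 FPKM in control. As a share of the summed FPKM the H2A groups overlapped, at 0.0183% to 0.0197% in CUMS and 0.0165% to 0.0189% in control. The difference between classes was not tested.

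Gene by gene, 59 of the 63 met the filter of 1 FPKM or more in 3 or more libraries and were tested among 12302 genes with limma on log2(FPKM + 1). With Benjamini-Hochberg adjustment over all tested genes, 3 histone genes rose (H1f1, H1f5 and H2bc11) and 0 fell; 0.618% of all tested genes rose and 0.455% fell. Of all calls 57.6% were higher, and 39.2% when the libraries were scaled to the same summed FPKM, where the histone count was again 3 higher and 0 lower. At an unadjusted p under 0.05, 32 of 59 were higher and 0 lower, against 7.02% higher and 8.41% lower of all tested genes. At the same summed FPKM 28 of the 59 were higher and 2 lower. All 3 CUMS libraries lay above all 3 control libraries for 32 of the 59, against 10% of all tested genes, and below them for 0, against 12.1%. The log2 change, CUMS minus control, was above 0 in 56 of 59 (55 at the same summed FPKM), against 49.7% of all tested genes. Its median was 0.48 over the 59 and -0.0017 over all tested genes. It was 0.40 in the replicate 1 pair and 0.46 in the libraries of code 2. Since no label says that libraries came from separate animals, the p-values reflect the spread among these samples alone, which may be technical. The counts above and in the fits below are also not of separate signals. For 20 of 62 histone genes, at least 50% of the 151-base stretches occur in another gene's transcripts.

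Whether libraries of equal number are pairs is not known, and the fit with the number as a block is an alternative only. With the replicate number as a block, 20 of the 59 histone genes were called higher and 0 lower, against 3.49% and 4.31% of all tested genes. They were 4 H1, 3 H2A, 6 H2B, 3 H3 and 4 H4 genes, and included all 3 that rose without the block. With the header code as a term, 30 were called higher and 0 lower, against 6.06% and 7.31% of all tested genes. In a fit to the 4 libraries of code 2 alone, 23 were called higher (8.82% of all tested genes) and H2ac18 and H2ac19 were called lower (8.84%). When 1 library was left out at a time, between 0 and 5 histone genes were called higher and 0 lower, with 5 called without control replicate 1 and 0 without CUMS replicate 2, CUMS replicate 3, control replicate 2 or control replicate 3.

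**Figure D2:**
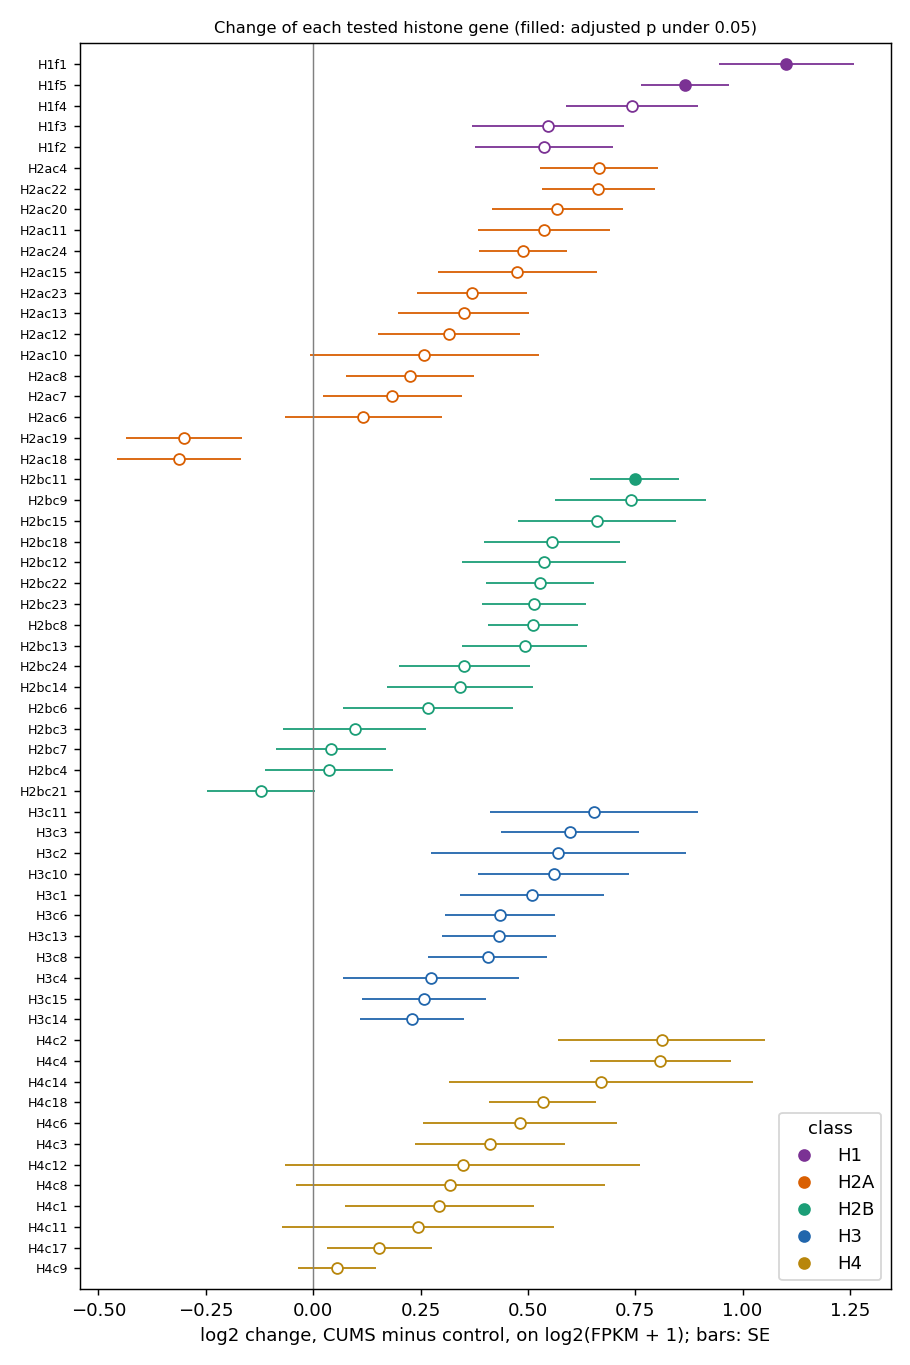
Log2 change in FPKM + 1, CUMS minus control, of the 59 tested histone genes grouped by class, with bars for the standard error of the limma fit. All but 3 points, H2ac18, H2ac19 and H2bc21, lie above 0; at the same summed FPKM H2bc4 lies at -0.0020.

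The other 4 histone genes did not meet the filter. H2ac1 was listed at 0 in all 6 libraries and H2bc1 did not exceed 0.045 FPKM in any. Both encode histones known from the testis. H2ac21 had 0.556, 0.751 and 0.228 FPKM in CUMS, against 0.461, 0 and 0.239 FPKM in control. H3c7 had 0.905, 1.33 and 2.04 FPKM in CUMS, against 0.919, 0.743 and 0.410 FPKM in control. For both the groups overlapped.

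The linker histone genes stood highest among the classes by median log2 change, 0.74 over 5 genes. All 5 had groups that did not overlap, with CUMS above control (10% of all tested genes), and 2 rose (0.618%). H1f1 had 3.89, 4.58 and 4.40 FPKM in CUMS libraries, against 2.05, 1.31 and 1.11 FPKM in control libraries. Even the lowest CUMS library was well clear of the highest control library, although the replicate 1 pair lay closest together. Its log2 change was 1.10 ± 0.16 (SE; limma adjusted p = 0.0235), and its ratio of means, 2.87, was the largest among the histone genes. H1f5 had 8.05, 7.58 and 8.69 FPKM in CUMS, against 4.27, 3.87 and 3.85 FPKM in control. The values of each group lay close together, with a wide gap between the groups. Its log2 change was 0.87 ± 0.10 (SE; limma adjusted p = 0.0120), with a ratio of means of 2.03. Leaving out 1 library at a time, H1f1 stayed called in 1 of 6 fits (adjusted p 0.0109 to 0.136) and H1f5 in 2 of 6 (0.0170 to 0.0835).

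H1f2 was the most abundant of the 63 genes, with 120.8, 92.6 and 83.3 FPKM in CUMS, against 77.8, 64.4 and 60.0 FPKM in control. Replicate 1 was the highest library of both groups. Its log2 change was 0.54 ± 0.16 (SE) and did not pass the test (limma adjusted p = 0.172), but it did with the replicate block (0.0100). H1f4 had 7.26, 9.68 and 8.15 FPKM in CUMS, against 3.61, 5.00 and 5.22 FPKM in control. With a log2 change of 0.74 it likewise missed the threshold (adjusted p = 0.0740) and passed with the block (0.0093). H1f3 had 6.66, 7.85 and 6.89 FPKM in CUMS, against 5.44, 3.21 and 5.35 FPKM in control, and did not pass either fit (adjusted p = 0.203, and 0.0865 with the block).

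**Figure D3:**
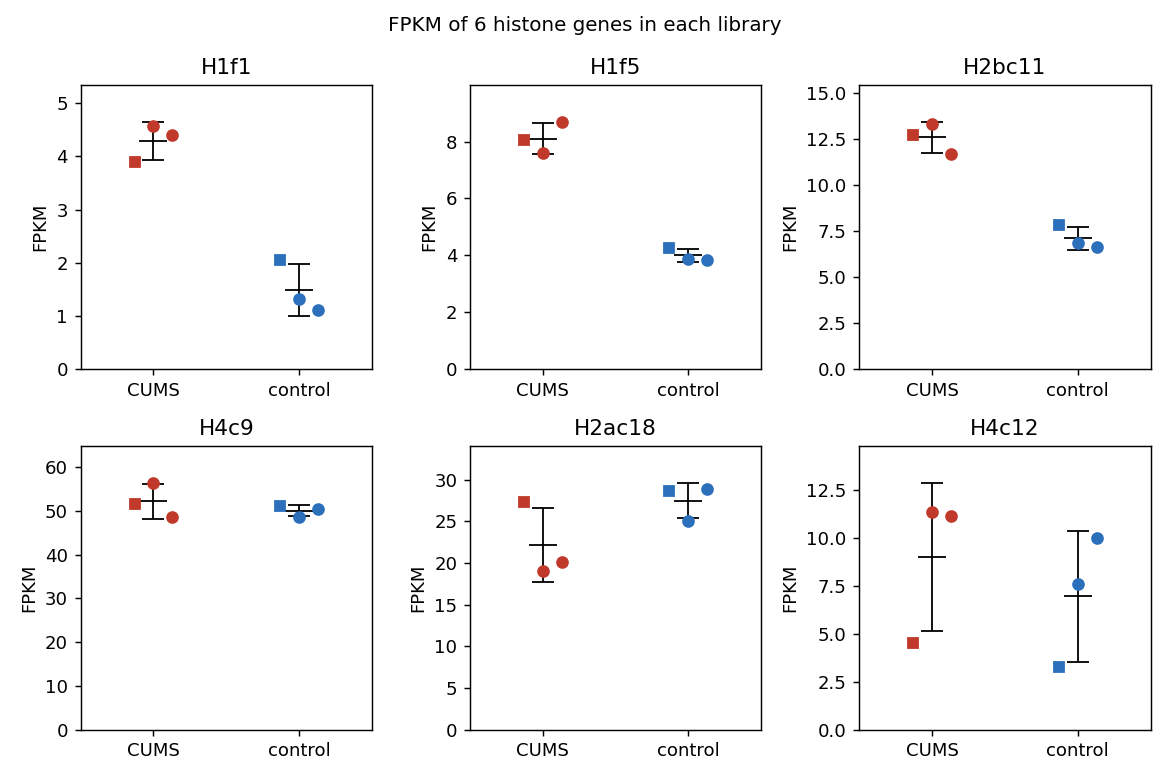
FPKM (vertical axes, from 0) of H1f1, H1f5, H2bc11, H4c9, H2ac18 and H4c12 in each library, CUMS left of control, with squares for replicate 1, circles for replicates 2 and 3, and bars for the mean ± SD. The 3 genes of the upper row have separate groups; H4c9 overlaps, H2ac18 overlaps with lower CUMS values in replicates 2 and 3, and H4c12 splits by header code.

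Of 15 tested H2A genes, 13 had a log2 change above 0 and 0 passed the test in either direction. At an unadjusted p under 0.05, 7 were higher and 0 lower. The most abundant pair of the class went the other way. H2ac18 had 27.3, 19.1 and 20.1 FPKM in CUMS, against 28.6, 25.0 and 28.9 FPKM in control. H2ac19 had 25.2, 18.1 and 19.4 FPKM in CUMS, against 26.7, 23.5 and 27.0 FPKM in control. In both genes CUMS replicate 1 lay within the control range and CUMS replicates 2 and 3 lay below it. Their log2 changes were -0.31 ± 0.14 and -0.30 ± 0.14 (SE; limma adjusted p = 0.358 and 0.347). In the libraries of code 2 alone they were -0.44 and -0.41, with adjusted p = 0.0157 and 0.0199. These genes are near-identical copies, and their values are not separate evidence: 86.9% of the 151-base stretches of H2ac18 and 100% of those of H2ac19 also occur in transcripts of another gene.

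The less abundant H2A genes had values in the other direction. H2ac24 had 8.60, 9.04 and 9.41 FPKM in CUMS, against 5.53, 6.33 and 6.58 FPKM in control (log2 change 0.49, limma adjusted p = 0.0755). H2ac22 had 6.22, 5.62 and 5.66 FPKM in CUMS, against 3.58, 3.79 and 2.64 FPKM in control (log2 change 0.66, adjusted p = 0.0694). H2ac4 had 3.63, 4.38 and 4.22 FPKM in CUMS, against 2.70, 2.15 and 1.80 FPKM in control (log2 change 0.67, adjusted p = 0.0740). None of these groups overlapped, and each gene passed with the replicate block (adjusted p = 0.0176, 0.0171 and 0.0297 in that order). In the same order, 91%, 72.4% and 44.9% of their 151-base stretches also occur in another gene's transcripts, each other's among them. Their values are therefore not wholly separate evidence. H2ac10 had 4.68, 10.1 and 10.2 FPKM in CUMS, against 5.29, 7.03 and 7.22 FPKM in control (log2 change 0.26, adjusted p = 0.712). Its replicate 1 was the lowest library in both groups.

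Among 16 tested H2B genes, 15 had a log2 change above 0 (14 at the same summed FPKM), 1 rose and 0 fell. That gene, H2bc11, had 12.7, 13.3 and 11.7 FPKM in CUMS, against 7.83, 6.83 and 6.62 FPKM in control. The values of each group lay close together and far from the other group. Its log2 change was 0.75 ± 0.10 (SE; limma adjusted p = 0.0214), with a ratio of means of 1.77. It stayed called in 1 of 6 fits that left out a library (adjusted p 0.0194 to 0.136). H2bc8 had 16.1, 16.1 and 15.5 FPKM in CUMS, against 11.97, 9.53 and 11.1 FPKM in control (log2 change 0.51, adjusted p = 0.0727, 0.0221 with the block).

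The groups overlapped for the most abundant H2B gene. H2bc4 had 45.8, 34.2 and 37.1 FPKM in CUMS, against 42.9, 31.8 and 39.3 FPKM in control, with a log2 change of 0.04 ± 0.15 (SE; limma adjusted p = 0.938), which was -0.0020 at the same summed FPKM. H2bc21, on chromosome 3, had 7.59, 5.89 and 6.39 FPKM in CUMS, against 8.23, 6.92 and 6.70 FPKM in control (log2 change -0.12, adjusted p = 0.716). For H2bc21 they overlapped too, and for both genes replicate 1 was the highest library of each group.

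All 11 tested H3 genes had a log2 change above 0 (0.23 to 0.65). In 9 all CUMS libraries lay above all control libraries, against 10% of all tested genes. The 9 are not separate signals. Of the 151-base stretches of H3c14, H3c13, H3c15 and H3c10, 100%, 73.7%, 59.3% and 90.4% also occur in another gene's transcripts. None passed the test, although 7 were higher at an unadjusted p under 0.05 and 0 lower. H3c3, the most abundant, had 11.8, 11.3 and 11.1 FPKM in CUMS, against 7.59, 8.96 and 5.41 FPKM in control (log2 change 0.60, limma adjusted p = 0.138, and 0.0339 with the block). H3c13 had 6.91, 5.97 and 7.90 FPKM in CUMS, against 4.67, 4.35 and 5.58 FPKM in control (log2 change 0.43, adjusted p = 0.184, and 0.0262 with the block). CUMS values were close to one another for H3c3 and control values were spread. H3c1 had 6.89, 4.82 and 5.12 FPKM in CUMS, against 3.62, 4.42 and 2.89 FPKM in control (log2 change 0.51, adjusted p = 0.214). H3c6 had 2.32, 2.48 and 2.41 FPKM in CUMS, against 1.73, 1.19 and 1.67 FPKM in control (log2 change 0.43, adjusted p = 0.169). H3c14 showed the smallest log2 change of the class, 0.23 (adjusted p = 0.415), with 5.31, 5.61 and 5.61 FPKM in CUMS and 3.81, 4.79 and 5.12 FPKM in control.

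All 12 H4 genes had a log2 change above 0 (0.06 to 0.81), but in 9 the groups overlapped and none passed the test. At an unadjusted p under 0.05, 4 were higher and 0 lower. H4c9 took the largest part of the class, with 51.6, 56.4 and 48.5 FPKM in CUMS, against 51.1, 48.6 and 50.5 FPKM in control. Its groups overlapped, and the log2 change was 0.06 ± 0.09 (SE; limma adjusted p = 0.831). H4c4 had 7.97, 9.30 and 11.8 FPKM in CUMS, against 4.38, 4.80 and 6.07 FPKM in control (log2 change 0.81, adjusted p = 0.0723, and 0.0042 with the block). H4c18 had 7.17, 8.22 and 7.25 FPKM in CUMS, against 4.10, 5.20 and 5.46 FPKM in control (log2 change 0.53, adjusted p = 0.0984, and 0.0233 with the block). Both had separate groups. H4c17 had 7.67, 7.33 and 8.72 FPKM in CUMS, against 7.76, 6.00 and 7.31 FPKM in control (log2 change 0.15, adjusted p = 0.612), and its groups overlapped. Of the 151-base stretches of H4c18, 77.1% also occur in H4c17, and 85.7% of those of H4c17 occur in H4c18. How reads were divided between them is not stated, so their values are not separate evidence.

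Several H4 genes moved with the header code. H4c12 had 4.55, 11.4 and 11.2 FPKM in CUMS, against 3.26, 7.63 and 10.0004 FPKM in control (log2 change 0.35, limma adjusted p = 0.757). In both groups replicate 1 was far below the other libraries. Over both groups its level in code 2 libraries exceeded that in code 1 libraries by 1.17 on the log2 scale (limma adjusted p = 0.000597). Of 12 H4 genes, 5 were higher in code 2, namely H4c1, H4c8, H4c11, H4c12 and H4c14, and 0 were lower, against 17.7% higher and 12.7% lower of all tested genes. Outside H4, H1f4, H2ac10 and H3c2 were higher in code 2 and H1f2, H2bc4 and H2bc21 lower, 12.8% of 47 genes, against 30.5% of all tested genes in either direction.

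Abundance and difference were not evenly matched. The 5 most abundant genes, H1f2, H4c9, H2bc4, H2ac18 and H2ac19, together averaged 233 ± 33 FPKM in CUMS and 209 ± 17 FPKM in control, a ratio of 1.12. The other 58 averaged 299 ± 21 FPKM in CUMS and 202 ± 7.6 FPKM in control, a ratio of 1.48. The 5 made up 49.6%, 41.1% and 40.4% of the histone sum in CUMS libraries, against 54.0%, 48.6% and 49.7% in control libraries. CUMS replicate 1 lay within the control range, and the other CUMS libraries lay below it. The 6 tested genes with a mean of at least 10 FPKM had a median log2 change of 0.05, and 0 of them were called. For the 18 genes at 5 to 10 FPKM the median was 0.51 with 2 called, and for the 35 below 5 FPKM it was 0.43 with 1 called. This split was chosen after the values were seen, and the difference was not tested.

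**Figure D4:**
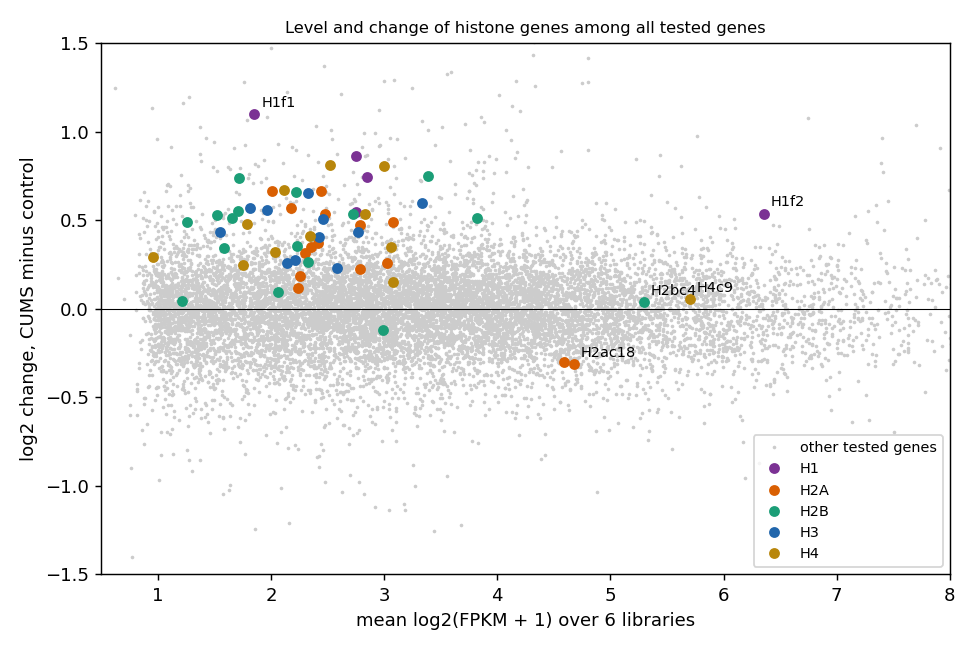
Log2 change, CUMS minus control, against mean log2(FPKM + 1) over the 6 libraries, for the 59 tested histone genes (coloured by class) and the other tested genes (grey). The most abundant histone genes lie near or below 0 except H1f2, and the others lie mostly above; 220 other genes outside the plotted range are not drawn.

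By position, 52 of the genes lie on chromosome 13, between 21715711 and 23934913, and 10 on chromosome 3, between 96219885 and 96270192 (RefSeq genes, GRCm38.p6). H2bc24 was not matched in that table. All 49 tested genes of chromosome 13 had a log2 change above 0, with a median of 0.49, except that H2bc4 lay at -0.0020 at the same summed FPKM. Of 9 on chromosome 3, 6 were above 0 and 3 below, with a median of 0.26. The 3 below were H2ac18 and H2ac19, which are near-identical copies, and H2bc21. The difference between the chromosomes was not tested. H2A and H2B genes often stand head to head, and 11 such pairs had starts 163 to 280 bases apart. In 9 of the 10 pairs with both genes tested, both log2 changes were above 0, in that of H2ac6 and H2bc4 not at the same summed FPKM. H2ac11 and H2bc11, 248 bases apart, had log2 changes of 0.54 and 0.75. The exception was H2ac20 with 0.57 beside H2bc21 with -0.12.

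Promoters of the genes that rose are shown with those of an abundant H2A and an abundant H4 gene that did not pass the test. Each is the 150 bases before the RefSeq start, read along the gene's strand, and capitals mark TATAAA and CCAAT on either strand. The windows, in GRCm38.p6, are chr13:23763518-23763667 (plus strand) for H1f1, chr13:21780626-21780775 (minus) for H1f5, chr13:22043048-22043197 (plus) for H2bc11, chr3:96245347-96245496 (plus) for H2ac18 and chr13:22041363-22041512 (minus) for H4c9.

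H1f1: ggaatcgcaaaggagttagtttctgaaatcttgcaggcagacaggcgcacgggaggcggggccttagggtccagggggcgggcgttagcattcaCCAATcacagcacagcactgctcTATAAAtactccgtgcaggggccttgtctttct
H1f5: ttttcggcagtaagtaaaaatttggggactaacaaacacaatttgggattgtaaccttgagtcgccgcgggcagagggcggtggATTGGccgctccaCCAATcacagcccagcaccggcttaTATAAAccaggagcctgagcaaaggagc
H2bc11: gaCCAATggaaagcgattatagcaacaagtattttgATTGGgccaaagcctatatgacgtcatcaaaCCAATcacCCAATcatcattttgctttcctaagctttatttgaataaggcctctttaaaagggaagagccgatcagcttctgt
H2ac18: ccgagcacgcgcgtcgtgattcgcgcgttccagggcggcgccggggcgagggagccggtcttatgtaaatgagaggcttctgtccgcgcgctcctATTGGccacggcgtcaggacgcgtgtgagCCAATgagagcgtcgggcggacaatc
H4c9: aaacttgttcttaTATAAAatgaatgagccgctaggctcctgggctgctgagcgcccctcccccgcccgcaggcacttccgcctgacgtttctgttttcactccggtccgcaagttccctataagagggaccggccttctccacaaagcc

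In 250 bases before the start, both strands, TATAAA was found in 48.3% of the 58 histone windows (57 genes), against 12.4% of 32851 windows of all genes. CCAAT was found in 82.8%, against 33.8%. All H1, H2A and H2B windows held CCAAT, as did 80% of H3 windows and 27.3% of H4 windows. The octamer ATTTGCAT, a motif known from H2B promoters, was found in 22.4%, against 1.6%. It was present in 46.7% of H2B and 35.3% of H2A windows and in 0 H1, H3 or H4 windows. Windows of head-to-head genes can cover the same bases, as those of H2ac8 and H2bc8 do, and a site there is counted for both genes. The shares are therefore not of separate sites. H1f1 and H1f5 held TATAAA and CCAAT, H2bc11 and H2ac18 held CCAAT alone, and H4c9 held TATAAA alone. Genes that rose and genes that did not shared these letters. A match is a description of letters, not of a bound site, and motifs that overlap were each counted.

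The annotated 3′ ends were of several kinds. GENCODE models that ran at least 100 bases past the stem-loop, as polyadenylated forms would, belonged to 17 tested genes, all with a log2 change above 0 (median 0.41, 0 called). Models ending sooner belonged to 22 tested genes, 20 of them above 0 and H2ac18 and H2ac19 below (median 0.50, 1 called). The other tested genes, H1f1 and H1f5 among them, had no stem-loop found in their model or, as H2bc24, no model. Which form was sequenced is not recorded in these values, and the labels name a TruSeq RNA kit without stating how RNA was selected. Genes of the family also resemble each other. At least 50% of the 151-base stretches of 20 of 62 genes occur in another gene's transcripts, among them 10 of 17 H2A genes, and values of such copies are uncertain because the handling of shared reads is not stated. For H1f1, H1f2 and H1f5 this share was 0%, and for H2bc11 it was 22%.

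Genes that make and handle histones and their mRNAs had smaller log2 changes than the histone genes in these values. Of 12 tested genes for histone mRNA transcription, processing and decay, 0 were called in either direction, 1 was higher at an unadjusted p under 0.05 and the median log2 change was 0.12. Slbp, which encodes the stem-loop binding protein, had 104.9, 97.3 and 99.7 FPKM in CUMS, against 105.5, 79.6 and 79.7 FPKM in control (log2 change 0.20, limma adjusted p = 0.513). Npat, which encodes a coactivator of histone genes, had 3.88, 4.96 and 4.40 FPKM in CUMS, against 3.14, 4.65 and 3.84 FPKM in control (log2 change 0.16, adjusted p = 0.667). Both genes had overlapping groups. With the block or the code term 0 of the 12 were called. In code 2 alone 2 were called higher, Slbp among them (limma adjusted p = 0.0125), and 1 lower, against 8.82% and 8.84% of all tested genes. Of 14 histone chaperones 0 were called, 4 were higher at an unadjusted p under 0.05 and 13 had a log2 change above 0 (12 at the same summed FPKM; median 0.20). With the block, the code term and code 2 alone, 0, 4 and 6 of the 14 were called higher and 0 lower. The shares of all tested genes called higher in those fits were 3.49%, 6.06% and 8.82%. Nasp, a chaperone of H1 and H3-H4, had a log2 change of 0.37 ± 0.15 (SE). It did not pass by group alone (limma adjusted p = 0.3) but did with the code term (0.0256).

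Genes of DNA replication had smaller differences in the same direction. Of 36 tested, 0 were called by limma, 11 were higher and 0 lower at an unadjusted p under 0.05, and 34 had a log2 change above 0, with a median of 0.18. With the replicate block 5 of the 36 were called higher, with the header code as a term 10, and in code 2 alone 17, with 0 lower in each. Of all tested genes 3.49%, 6.06% and 8.82% were called higher in those fits. Rrm2, a subunit of ribonucleotide reductase, had 188.8, 185.7 and 181.1 FPKM in CUMS, against 153.5, 142.3 and 149.5 FPKM in control. The groups were apart, and the log2 change of 0.32 did not pass (limma adjusted p = 0.138, 0.0362 with the block). Pcna, the replication clamp, had a log2 change of 0.16 (adjusted p = 0.587). Of 20 mitosis genes 0 were called, 1 was higher at an unadjusted p under 0.05 and 17 were above 0 (14 at the same summed FPKM; median 0.16). With the block, the code term and code 2 alone, 1, 2 and 8 of the mitosis genes were called higher and 0 lower. Mki67 had 84.1, 157.7 and 150.2 FPKM in CUMS, against 65.8, 125.7 and 113.5 FPKM in control (log2 change 0.36, adjusted p = 0.634, 0.0251 with the block), with replicate 1 the lowest of both groups. The histone median of 0.48 lay above the medians of these lists; the difference was not tested.

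**Figure D5:**
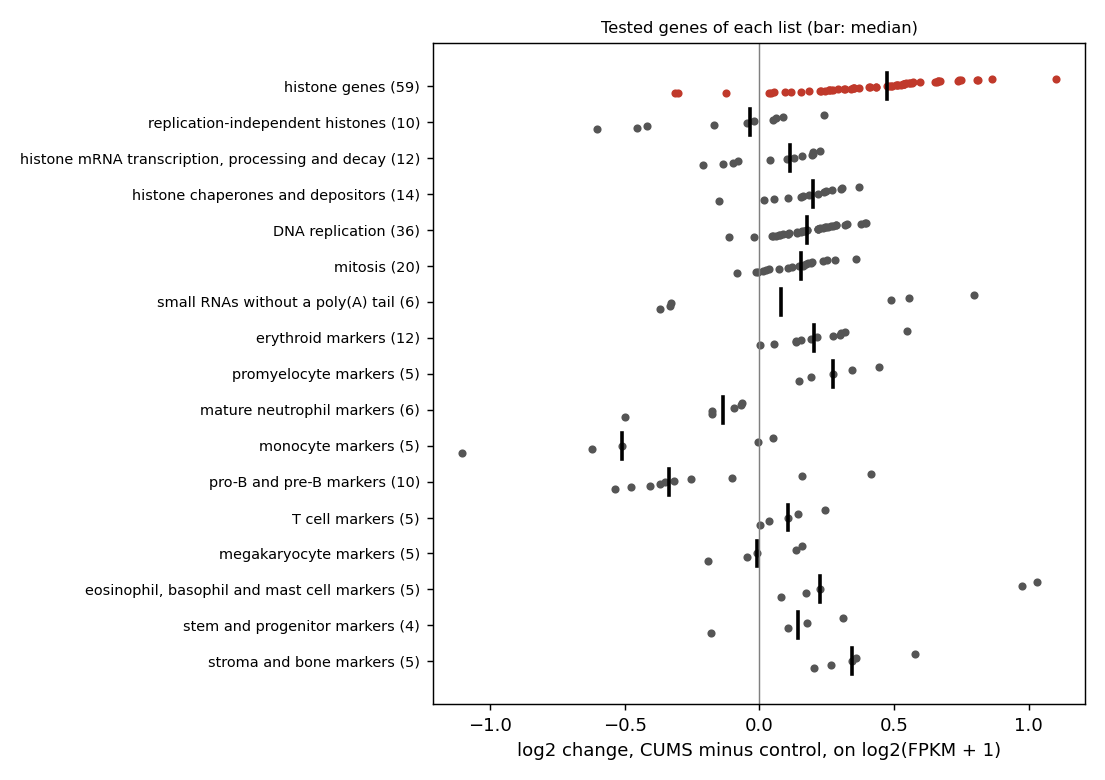
Log2 change, CUMS minus control, of the 59 tested histone genes (red, top row) and of the tested genes of each list set beside them, 1 point per gene with a bar at each list's median. The histone median is 0.48, and those of the lists for DNA replication, mitosis and chaperones are 0.16 to 0.20.

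Histone genes listed as replication-independent had log2 changes on both sides of 0. Of 10 tested replication-independent histone genes, 0 were called, 2 were lower and 0 higher at an unadjusted p under 0.05, and the median log2 change was -0.03. With the replicate block, where 4.31% of all tested genes were called lower and 3.49% higher, 3 of the 10 were called lower and 0 higher. They were H1f10, H2az2 (log2 change -0.42, limma adjusted p = 0.346, and 0.0269 with the block) and H2aj (log2 change -0.45, adjusted p = 0.218, and 0.0226 with the block). For H2az2 and H2aj the groups overlapped. H3f3b, an H3.3 gene, had a log2 change of 0.24, H2az1 of 0.05 and H2ax of -0.02, none past the test or called with the block. H3f3b was called higher with the header code as a term (limma adjusted p = 0.0457) and in code 2 alone (0.0108). In those fits 3 and 2 genes of the list were called lower. H1f10, a replacement linker histone, had 1.02, 1.56 and 1.54 FPKM in CUMS, against 2.99, 2.57 and 2.24 FPKM in control. Its groups did not overlap, with CUMS below control (log2 change -0.60, limma adjusted p = 0.109, and 0.0486 with the block), while all 5 H1 genes of the S-phase type lay above control.

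Markers of marrow cell types had differences of their own. The 12 erythroid, 5 promyelocyte and 6 mature neutrophil markers that define much of marrow all passed the filter. All 12 erythroid markers had a log2 change above 0 (11 at the same summed FPKM; median 0.20, 0 called, 3 higher at an unadjusted p under 0.05), with sums of 122355 to 150806 FPKM in CUMS and 105741 to 125351 FPKM in control. All 5 promyelocyte markers lay above 0 (median 0.27, 0 called), and all 6 mature neutrophil markers lay below 0 (3 after quantile normalization; median -0.13, 0 called). Of 5 monocyte markers 4 lay below 0 and 1 above, with a median of -0.51 and a range of -1.10 to 0.05. Among them Csf1r (log2 change -0.62) and Cx3cr1 (-1.10) fell. All 5 eosinophil, basophil and mast cell markers lay above 0 (0.08 to 1.03), and Epx (0.98) and Prg2 (1.03) rose. Their median was 0.22, with -0.15 in the replicate 1 pair and 0.43 in code 2. With 1 library left out, Epx stayed called in 6 of 6 fits, Cx3cr1 in 3, and Csf1r and Prg2 in 1 each. Of 10 pro-B and pre-B markers 8 lay below 0 (median -0.33, 0 called). By group alone none of the tested T cell, megakaryocyte, stem and progenitor or stroma and bone markers was called. Their medians were 0.11, -0.01, 0.14 and 0.34 in that order. With the replicate block, 2 erythroid, 1 promyelocyte, 2 stroma and bone and 2 eosinophil, basophil and mast cell markers were called higher. Called lower were 1 mature neutrophil and 3 monocyte markers. Of the pro-B and pre-B markers 1 was called higher and 5 lower with the block. With the code term, 3 erythroid, 3 promyelocyte and 1 pro-B and pre-B marker were called higher and 7 pro-B and pre-B markers lower. In code 2 alone these counts were 7, 2 and 1 higher and 6 lower. Of all tested genes 3.49%, 6.06% and 8.82% were called higher in those fits, in that order, and 4.31%, 7.31% and 8.84% lower. The part of these shifts in the histone difference was not tested. Of 6 tested small RNAs without a poly(A) tail, 5 were higher in code 2 and 0 lower (limma adjusted p under 0.05). Of all tested genes 17.7% were higher in code 2 and 12.7% lower. The sums of the small RNAs, untested members included, were 17.1, 117.3 and 97.1 FPKM in CUMS and 22.0, 92.5 and 96.2 FPKM in control. Between the groups 0 of the 6 were called, with 0 higher and 1 lower at an unadjusted p under 0.05. In code 2 alone 2 of the 6 were called higher in CUMS and 0 lower, against 8.82% and 8.84% of all tested genes. The 2 were Rmrp (log2 change 1.10, limma adjusted p = 0.0162) and Rpph1 (log2 change 0.87, adjusted p = 0.0238). The part of RNA selection in the histone difference was not tested.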

How the data were processed

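Total RNA was extracted with TRIzol, libraries were made from 1 µg with a TruSeq RNA kit and read as 151-bp pairs on a NovaSeq instrument, per the labels' protocols. Named without a role, per the submitters' processing notes, are the mm10 build, HISAT2 2.1, featureCounts 1.6.4, cutadapt 1.16.5, DESeq2 2.11.40.6 and bcl2fastq 2.19. The deposited values are FPKM by their decimals and sums, since the unit is not given in the sources used here. Use of strand, treatment of shared reads and poly(A) selection are not stated either.

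Genes of 1 FPKM or more in 3 or more of the 6 libraries were tested with limma-trend 3.58.1 (R 4.3.3) on log2(FPKM + 1), group only, Benjamini-Hochberg adjusted p under 0.05. Fold changes of low genes are understated on this scale. The fit was tested on simulated data. Tables and plots were made with pandas 2.3.3, matplotlib 3.10.9 and numpy 2.4.6 in Python 3.11.15. Alternatives were other pseudocounts, filters and scalings, the header code as a term, code 2 alone, the replicate block, and each library left out.

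The histone genes and lists were chosen with earlier results of these data known. Named histone genes were those called, the 4 most abundant and the 2 of smallest p in each class, and H1f1 to H1f5; others were chosen after their values were seen. H4c16, listed among them, had no entry. From each other list up to 3 genes of smallest p, and a fixed set, could be named. Deviations from group means correlated across genes by 0.689, 0.452 and 0.363 in same-numbered libraries. Replicates 2 and 3 crossed gave 0.459 and 0.362, and replicate 1 shares its header code. These values do not show pairs by number beyond the code, so the replicate block is an alternative fit only. The smallest p that exact permutation of 3 against 3 libraries allows is 0.1. Promoters are from RefSeq (GRCm38.p6) and transcripts from GENCODE M21 (GRCm38).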

Additional observations from a re-analysis of the deposited data

How the results depend on the processing

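The summed histone level and the H1, H2A, H2B, H3 and H4 sums stayed higher in CUMS by ratio of means under every scaling tried, in code 2 alone and with any 1 library left out. The histone median log2 change was 0.41 (without control replicate 1) to 0.50 when 1 library was left out, and 0.55 with a pseudocount of 0.1. Called higher among the histone genes were 0 when genes above 0 in 1 library were admitted (29 higher at an unadjusted p under 0.05 by limma), 20 with the replicate block, 30 with the header code as a term, 23 in code 2 alone, where 2 were lower, and 0 to 5 with a library left out (28 to 32 higher at an unadjusted p under 0.05). At an unadjusted p under 0.05 by limma, 2 histone genes were lower at the same summed FPKM and without CUMS replicate 1. The same number was lower with the block, with the code term and in code 2 alone, and 0 in the other fits. The 3 calls were kept in the fits with the block, the code term and code 2 alone.

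Over all tested genes the corresponding counts were 18, 429, 746, 1085 and 9 to 160 called higher and 18, 530, 899, 1088 and 7 to 102 called lower. Those called lower were 101 at equal summed FPKM, which moved the median of all genes to -0.036, and 91 after quantile normalization. Among the histone genes and the other named genes, directions turned under a scaling only for H2bc4 at equal summed FPKM (-0.0020) and Retnlg after quantile normalization (0.00535), neither called; unnamed genes of other lists turned too, such as 3 of 20 mitosis genes at equal summed FPKM. With a library left out the log2 change of named genes ranged over both signs for H2ax (-0.21 to 0.077), H2az1 (-0.020 to 0.17), H2bc4 (-0.083 to 0.13), H4c12 (-0.049 to 0.73) and H4c9 (-0.000552 to 0.11), none called. Among the other histone genes H2bc7 (-0.046), H2ac6 (-0.088) and H2bc3 (-0.061) each turned without 1 control library, and H2bc7 (-0.018) in code 2 alone, none called. The cause was not tested. The depth behind each value is not known, and the precision rests on 3 libraries a group.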
